A study of Mus musculus with 56 samples.

Results

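The 10 macrophage marker genes Adgre1, Cd68, Csf1r, Mrc1, Itgax, Lyz2, Cd163, Clec10a, Timd4 and Lyve1 were followed in mouse visceral adipose tissue (VAT) through the day under 2 feeding regimens. They were chosen by name, as transcripts widely used to recognise tissue macrophages, and all 10 were among the 25939 genes of the deposited table. All 10 also reached the mean of 0.5 CPM (read counts per M reads of the library size the authors applied) that 15731 genes reached and that was required for testing. The tissue came from female C57BL/6J mice, with no genetic change named in the labels, that were 9 weeks old and housed with 12 h of light and 12 h of darkness. For 7 days food was given in the daytime (daytime-restricted feeding, DRF) or in the nighttime (nighttime-restricted feeding, NRF, the reference). At each of 7 zeitgeber times (ZT, hours after lights on), ZT0, ZT4, ZT8, ZT12, ZT16, ZT20 and ZT24, 4 mice per regimen gave 1 library each, which makes 14 groups and 56 libraries. VAT is a mixture of adipocytes, stromal, vascular, mesothelial and immune cells, and in such bulk RNA fewer macrophages and less marker RNA per macrophage cannot be told apart.

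Macrophages of fat clear dying adipocytes, take up released lipid and debris, and form a resident population along vessels beside cells derived from blood monocytes. Their survival depends on the receptor encoded by Csf1r and its ligands, and the lineage factor PU.1, encoded by Spi1, binds the regulatory regions of many of their genes. The 10 markers fall into groups by role. Adgre1 (F4/80, an adhesion G protein-coupled receptor), Cd68 (a lysosomal glycoprotein), Csf1r and Lyz2 (lysozyme) mark macrophages broadly. Mrc1 (the mannose receptor CD206), Cd163 (the scavenger receptor for haemoglobin bound to haptoglobin) and Clec10a (a lectin for galactose and N-acetylgalactosamine) are typical of resident cells. Lyve1 (a hyaluronan receptor) and Timd4 (a receptor for phosphatidylserine on dying cells) mark long-lived resident cells, and Itgax (the integrin chain CD11c) marks dendritic cells and the inflammatory macrophages of obese fat.

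Recovered reads on genes ran from 31016312 to 41046860 per library. Of the 10 markers, Itgax had the lowest read numbers, 49 to 348 per library. Libraries DRF ZT0 replicate 4 and DRF ZT8 replicate 1 stood apart from the rest in transcripts of reproductive tract epithelium, with summed levels of 762 and 268 CPM over the 6 list members tested, against at most 39.8 CPM in the other libraries. Among the 56 libraries, DRF ZT8 replicate 1 was lowest in Csf1r (82.2 CPM), Mrc1 (75.9 CPM), Cd163 (35.5 CPM) and Clec10a (22.5 CPM). It was highest in Itgax (8.07 CPM). The library size applied to it was 43.1 M against 31691076 recovered reads. Its reads of Cd163 (1531) and Clec10a (970) were also the lowest. Csf1r held 3545 reads there and 3247 in DRF ZT12 replicate 4, which had 33619060 recovered reads. Mrc1 held 3271 reads there and 2963 in DRF ZT4 replicate 4, which had 36311199. DRF ZT0 replicate 4 was highest in Cd68 (43.8 CPM). For several results the value without this pair of libraries is also given. The library NRF ZT8 replicate 2 held the highest summed level of the 10 markers, 1972 CPM against a median of 1068 CPM over the 56 libraries.

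Sequence is shown for the promoters that bear on the lineage factor and on the daily rhythms. Promoters of 6 of the 10 genes were matched in the RefSeq table of GRCm38.p6 (Mrc1, Cd163, Itgax, Lyz2, Timd4 and Cd68). The 250 bases before the transcript start were searched on both strands for GAGGAA, the core of the PU.1 site, and for CACGTG, the E-box that clock proteins bind. GAGGAA was present in 2 of the 6, Mrc1 with 3 matches and Cd68 with 1, and in 23.3% of the 32851 promoters of the table. CACGTG was present in 0 of the 6 and in 6.02% of the table. The promoters of Mrc1 (chr2:14229164-14229413, plus strand), Cd68 (chr11:69666171-69666420, minus strand) and Cd163 (chr6:124304401-124304650, plus strand) read as follows, with matches of GAGGAA or its reverse complement in capitals. Cd163, the marker with a daily rhythm under both regimens, held neither motif in this window.
Mrc1: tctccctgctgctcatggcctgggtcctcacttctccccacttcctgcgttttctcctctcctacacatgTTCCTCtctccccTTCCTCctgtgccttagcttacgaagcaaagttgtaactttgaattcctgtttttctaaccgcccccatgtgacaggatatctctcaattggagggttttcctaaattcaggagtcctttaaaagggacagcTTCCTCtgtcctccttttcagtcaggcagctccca
Cd68: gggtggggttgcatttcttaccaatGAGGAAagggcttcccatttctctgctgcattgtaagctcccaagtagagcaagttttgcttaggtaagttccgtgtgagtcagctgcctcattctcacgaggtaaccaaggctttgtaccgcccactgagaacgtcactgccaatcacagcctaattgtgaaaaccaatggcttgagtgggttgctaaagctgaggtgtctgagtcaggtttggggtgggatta
Cd163: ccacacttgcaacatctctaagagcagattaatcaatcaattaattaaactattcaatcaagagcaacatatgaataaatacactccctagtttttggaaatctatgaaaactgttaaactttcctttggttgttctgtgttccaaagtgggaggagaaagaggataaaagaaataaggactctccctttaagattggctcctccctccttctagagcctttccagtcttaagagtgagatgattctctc

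Per kilobase of exon, Lyz2 was by far the most abundant of the markers, with 404 ± 125 CPM per kb (mean ± SD over 56 libraries). Csf1r followed with 27.5 ± 5.3 CPM per kb, on an exon length taken from the values, and exceeded Lyve1 in 44 of 56 libraries. Lyve1 (20.5 ± 7.1), Mrc1 (19.4 ± 4.2), Cd163 (18.6 ± 5.3), Cd68 (18.5 ± 4.6) and Clec10a (18.2 ± 3.8 CPM per kb) could not be ordered, each exceeding the next in only 24 to 35 of the 56 libraries. Adgre1 (11.9 ± 2.8 CPM per kb) was below Clec10a in 54 of 56 libraries. Timd4 (3.74 ± 0.99 CPM per kb) and Itgax (0.550 ± 0.230 CPM per kb) were lowest, and each was below its upper neighbour in 56 of 56 libraries.

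Averaged over the day, 5 of the 10 markers were lower under DRF than under NRF and 0 were higher by limma at an adjusted p under 0.05. Among all 15731 genes tested, 17.4% were lower and 18.7% higher. At an unadjusted p under 0.05, 6 were lower and 1, Lyve1, was higher. The 5 were Clec10a, Mrc1, Csf1r, Adgre1 and Cd163, with DRF levels of 0.734 to 0.836 times the NRF levels on the CPM + 1 scale. The median DRF minus NRF difference of the 10 markers was -0.24 on the log2(CPM + 1) scale and that of all genes tested was 0.00. The 5 comprised 2 of the 4 broad markers and 3 of the 5 resident-cell markers (Mrc1, Cd163 and Clec10a), whereas Timd4 (-0.08, adjusted p 0.497) and Lyve1 (0.22, adjusted p 0.0557), which mark long-lived resident cells, did not pass.

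**Figure D1:**
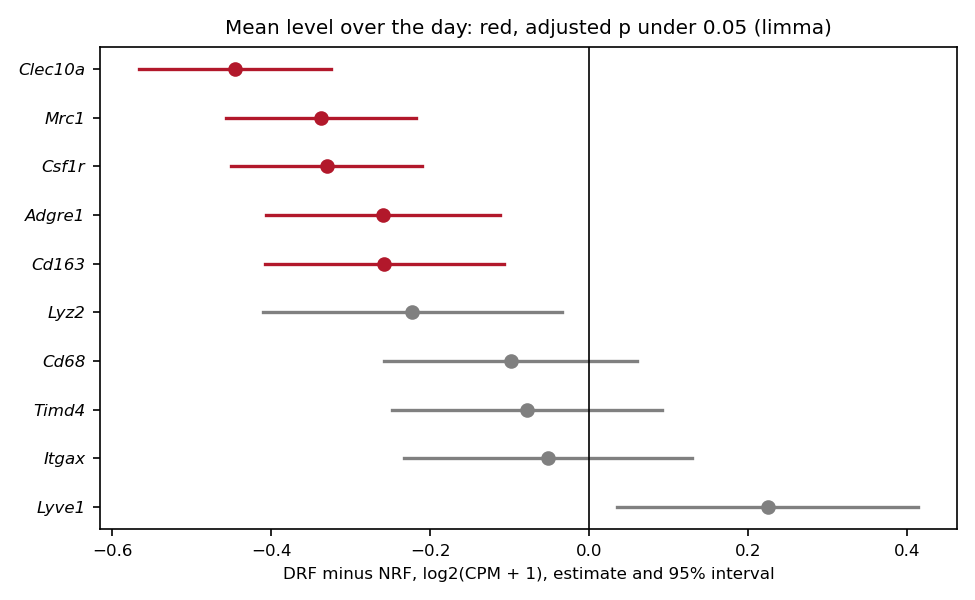
DRF minus NRF difference in mean level over the day for each marker, in log2(CPM + 1), with its 95% interval from limma; red marks an adjusted p under 0.05. The intervals of Clec10a, Mrc1, Csf1r, Adgre1 and Cd163 lie wholly below 0, that of Lyz2 also lies below 0 and that of Lyve1 (estimate 0.22) above it without passing after adjustment over all genes, and the intervals of Cd68, Itgax and Timd4 span 0.

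Clec10a (ENSMUSG00000000318, chr11:70156197-70170834, plus strand) showed the largest difference of the 10. Its level in the 28 NRF libraries ran from 48.1 to 84.2 CPM with a median of 60.5 CPM. In the 28 DRF libraries it ran from 22.5 to 63.4 CPM with a median of 44.8 CPM. The ranges overlapped, but 27 of the 28 DRF libraries lay below the NRF median. The difference was -0.45 ± 0.06 on the log2(CPM + 1) scale (SE; 95% interval -0.57 to -0.32, adjusted p 8.97e-08), with DRF lower at 7 of 7 time points. The near copy Mgl2, a gene beside it on chromosome 11, shares 87.8% of its aligned coding bases and 10.6% of the 50-base words of its transcript, so reads of both may have been lost or exchanged. Mgl2, named because of this overlap, ran from 36.7 to 96.9 CPM under NRF (median 57.0) and from 24.5 to 77.9 CPM under DRF (median 45.7).

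Mrc1 (ENSMUSG00000026712, chr2:14229392-14332057, plus strand) ran from 101 to 191 CPM under NRF with a median of 139 CPM. Under DRF it ran from 75.9 to 184 CPM with a median of 101 CPM, and 26 of 28 DRF libraries lay below the NRF median. The difference was -0.34 ± 0.06 on the log2 scale (95% interval -0.46 to -0.22, adjusted p 1.42e-05), with DRF lower at 6 of 7 time points.

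Csf1r (ENSMUSG00000024621, chr18:61100598-61132149, plus strand) ran from 100.3 to 213 CPM under NRF with a median of 151 CPM, and from 82.2 to 161 CPM under DRF with a median of 118 CPM. In 27 of 28 DRF libraries it was below the NRF median. The difference was -0.33 ± 0.06 (log2, SE; 95% interval -0.45 to -0.21, adjusted p 2.25e-05), and DRF was lower at 7 of 7 time points.

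Adgre1 (ENSMUSG00000004730, chr17:57358691-57483527, plus strand) had a median of 40.5 CPM under NRF (27.7 to 64.6) and of 33.7 CPM under DRF (25.5 to 55.4). The difference was -0.26 ± 0.07 (log2, SE; adjusted p 0.00444), DRF was lower at 7 of 7 time points, and 25 of 28 DRF libraries lay below the NRF median. Without the mice numbered 1 the difference was -0.20 and missed the threshold (adjusted p 0.0698 in limma). Cd163 (ENSMUSG00000008845, chr6:124304656-124330527, plus strand) had a median of 106 CPM under NRF (63.4 to 160) and of 93.1 CPM under DRF (35.5 to 171). Its difference was -0.26 ± 0.08 (log2, SE; adjusted p 0.00582), with DRF lower at 5 of 7 time points and 19 of 28 DRF libraries below the NRF median.

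The other 5 markers did not pass the threshold on the mean level. Lyz2 (ENSMUSG00000069516, chr10:117277331-117282321, minus strand) had a median of 523 CPM under NRF (352 to 1270) and of 469 CPM under DRF (309 to 809), a log2 difference of -0.22 ± 0.09 with an adjusted p of 0.0570. It passed in 5 of 16 alternatives, among them CPM computed from the recovered reads (-0.27, adjusted p 0.0208). Leaving out the mice of 1 number at a time moved the Lyz2 difference between -0.31 (adjusted p 0.0266, without the mice numbered 4) and -0.14 (adjusted p 0.329, without those numbered 1). Lyve1 (ENSMUSG00000030787, chr7:110850607-110863239, minus strand) was the single marker with a higher DRF estimate, 0.22 ± 0.09 on the log2 scale with an adjusted p of 0.0557. Without DRF ZT0 replicate 4 and DRF ZT8 replicate 1 the Lyve1 estimate was 0.24 with an adjusted p of 0.0358. Cd68 (ENSMUSG00000018774, chr11:69664213-69666153, minus strand) differed by -0.10 (95% interval -0.26 to 0.06). Timd4 (ENSMUSG00000055546, chr11:46810800-46844332, plus strand) differed by -0.08 (interval -0.25 to 0.09) and Itgax (ENSMUSG00000030789, chr7:128129547-128150657, plus strand) by -0.05 (interval -0.23 to 0.13). Without the pair of libraries set apart the estimates were -0.05 for Timd4 (adjusted p 0.670) and -0.11 for Itgax (adjusted p 0.280).

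The Lyz2 level also carries a limit from sequence. Lyz1, which lies beside it on chromosome 10 and encodes the lysozyme of Paneth cells, has the same coding length of 444 bases and is identical at 422 of them (95.0%), and 15.4% of the 50-base words of the Lyz2 transcript recur in Lyz1. The first 150 coding bases of both, from the GENCODE M21 transcripts, differ at 14 positions, which are shown in capitals.
Lyz2: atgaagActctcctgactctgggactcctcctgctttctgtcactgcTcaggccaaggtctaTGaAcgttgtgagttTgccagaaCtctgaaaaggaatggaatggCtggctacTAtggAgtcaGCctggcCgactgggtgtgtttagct
Lyz1: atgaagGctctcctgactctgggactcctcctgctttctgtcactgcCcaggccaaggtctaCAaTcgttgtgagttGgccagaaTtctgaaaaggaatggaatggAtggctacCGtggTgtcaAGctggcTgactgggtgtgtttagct
Lyz1, named because of this likeness, was measured at 16.7 to 57.6 CPM under NRF (median 28.3) and 11.1 to 58.3 CPM under DRF (median 23.3). How many of these reads came from Lyz2 was not tested.

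**Figure D2:**
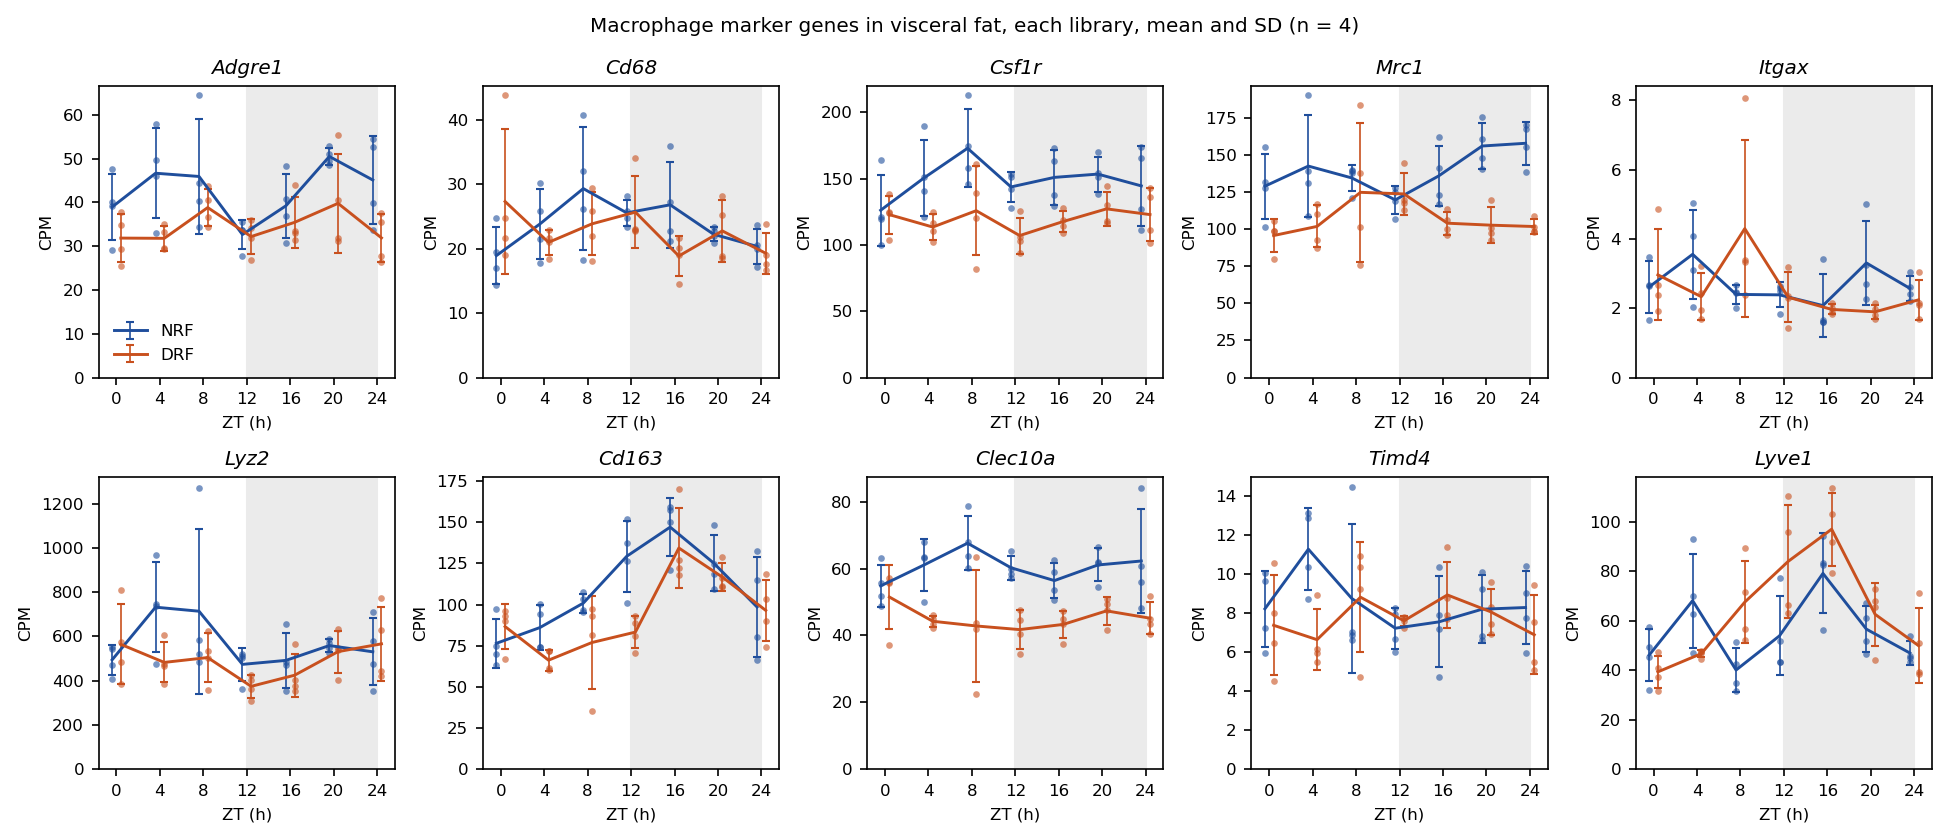
Level of each marker in CPM (y axes from 0) against zeitgeber time in hours, with NRF in blue and DRF in orange; points are single libraries, lines join the means of 4 mice, bars are SD and the shading is the dark phase. Clec10a lies lower under DRF at all 7 time points, Cd163 peaks at ZT16 under both regimens, and Lyve1 is higher under DRF at ZT8 and ZT12.

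The daily course was tested for a 24-h rhythm within each regimen and for a difference in rhythm between them. Cd163 and Cd68 were rhythmic under NRF, and Cd163 and Lyve1 under DRF, so 2 of 10 markers passed in each regimen. Among all genes tested 55.4% were rhythmic under NRF and 36.5% under DRF. Mrc1, Cd163, Timd4 and Lyve1 differed in rhythm between the regimens, 4 of 10 markers against 54.0% of all genes tested.

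Cd163 was the single marker rhythmic under both regimens, which held for 25.4% of all genes tested. Under NRF its means rose from 76.5 ± 14.7 CPM at ZT0 to 147 ± 18 CPM at ZT16 (SD, n = 4 mice) and stood at 98.5 ± 30.6 CPM at ZT24. Under DRF the mean was 86.7 ± 13.5 CPM at ZT0, lowest at ZT4 (66.2 ± 6.4 CPM) and highest at ZT16 (134 ± 24 CPM). Both regimens thus had their highest mean at ZT16, but at ZT12 the NRF libraries were already high, with 127, 137, 101 and 152 CPM, while the DRF libraries held 70.4, 93.0, 88.6 and 81.2 CPM and did not overlap with them. The cosine fitted to NRF had an amplitude of 0.43 ± 0.07 (log2) and a peak at 15.1 ± 0.6 h (SE; adjusted p 3.47e-05). Under DRF the amplitude was 0.49 ± 0.09 and the peak 17.9 ± 0.6 h (adjusted p 7.73e-05). The fitted peaks differed by 2.84 ± 0.88 h, and the limma test of the difference in rhythm gave an adjusted p of 0.0159. Without the mice numbered 1 that test gave 0.113.

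Lyve1 passed the 24-h test under DRF, with the widest swing of the 10 markers. Its DRF means climbed from 39.3 ± 6.6 CPM at ZT0 to 96.9 ± 14.8 CPM at ZT16 and returned to 49.9 ± 15.2 CPM at ZT24 (SD, n = 4). The fitted amplitude was 0.57 ± 0.08 (log2), a peak to trough ratio of 2.19, with the peak at 13.9 ± 0.6 h (adjusted p 1.45e-05). Under NRF the 24-h test gave an adjusted p of 0.626, yet the 7 NRF means differed (limma F-test, adjusted p 0.00235). They were high at ZT4 (68.1 ± 19.0 CPM) and again at ZT16 (79.1 ± 16.1 CPM), with 40.0 ± 8.9 CPM at ZT8 between them, a course that a single 24-h cosine describes poorly. The regimens differed in rhythm with an adjusted p of 0.0102, which became 0.130 without the mice numbered 2 and 0.103 without those numbered 4.

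Cd68 showed a shallow rhythm under NRF, with an amplitude of 0.23 ± 0.07 (log2) and a fitted peak at 11.2 ± 1.3 h (adjusted p 0.00710). Its NRF means lay between 18.9 ± 4.4 CPM at ZT0 and 29.4 ± 9.5 CPM at ZT8. Without the ZT24 libraries the adjusted p was 0.0688. Under DRF the amplitude was 0.07 ± 0.09, and 0.14 (adjusted p 0.495) without DRF ZT8 replicate 1 and DRF ZT0 replicate 4, the library highest in Cd68. The difference between the 2 Cd68 rhythms did not pass the threshold (adjusted p 0.260), so loss of the rhythm under DRF was not shown.

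Mrc1 and Timd4 differed in rhythm between the regimens although neither passed the 24-h test within a regimen. Mrc1 under DRF came close, with an adjusted p of 0.0714, and it passed without DRF ZT0 replicate 4 and DRF ZT8 replicate 1 (adjusted p 0.0466) and on the deposited scores (0.0172). Mrc1 under NRF was highest at ZT20 and ZT24 (156 ± 15 and 158 ± 14 CPM), whereas its DRF means were highest at ZT8 and ZT12 (125 ± 47 and 124 ± 14 CPM). The interaction gave an adjusted p of 0.0136, 0.00244 without that pair of libraries and 0.165 without the mice numbered 2. Timd4 under NRF was highest at ZT4 (11.3 ± 2.1 CPM), while its DRF mean there was its lowest (6.64 ± 1.55 CPM). The interaction for Timd4 gave an adjusted p of 0.0433 and was lost in 6 of 14 alternatives. Of Adgre1, Csf1r, Itgax, Lyz2 and Clec10a, 0 passed a 24-h test or the test of a difference in rhythm at an adjusted p under 0.05, and the lowest unadjusted p among them was that of Lyz2 under DRF (0.0206). An F-test over the 7 time points, free of the cosine shape, passed for Cd163 and Lyve1 under NRF, 2 of 10 against 44.9% of all genes, and for Cd163, Lyve1 and Itgax under DRF, 3 of 10 against 46.6%. For Itgax (adjusted p 0.0456) the highest DRF value was 8.07 CPM in ZT8 replicate 1, which is 1 of the 2 libraries set apart above. At ZT24 against ZT0, the same clock time a day apart, 0 of the 10 markers differed under NRF, where 0.311% of all genes did, and 0 of 10 under DRF, where 0.114% did (limma; 0 and 1 at an unadjusted p under 0.05).

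**Figure D3:**
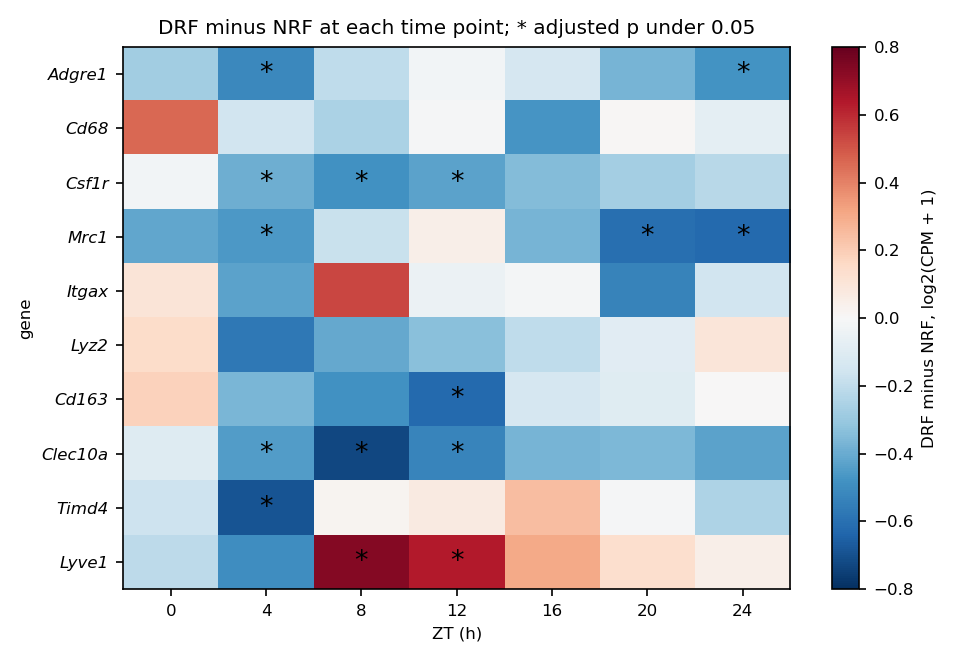
DRF minus NRF difference in log2(CPM + 1) for each marker (rows) at each zeitgeber time in hours (columns), red for higher under DRF and blue for lower; an asterisk marks an adjusted p under 0.05 in limma. The ZT4 column is blue for 10 of 10 markers, with 5 asterisks, and Lyve1 is red at ZT8 and ZT12.

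Set against each other time by time, the regimens differed in the largest number of markers at ZT4, in the light phase, when DRF mice had access to food and NRF mice did not. At ZT4 10 of 10 DRF means were below the NRF means and 5 passed the threshold (Adgre1, Csf1r, Mrc1, Clec10a and Timd4), against 15.9% of all genes lower at that time. The median difference of the markers at ZT4 was -0.46 on the log2 scale, and that of all genes was -0.02. Over the 70 comparisons of a marker at a time point 13 were lower and 2 higher, 15 in all, against 24.2% of the comparisons over all genes. Fewer markers were lower at the other times: 2 at ZT8 (12.3% of all genes), 3 at ZT12 (12.2%), 1 at ZT20 (11.8%) and 2 at ZT24 (9.87%). At ZT0, where 9.52% of all genes were lower, and at ZT16, where 9.17% were, 0 markers passed in limma, although at an unadjusted p under 0.05 1 was lower and 1 higher at ZT0 and 4 were lower at ZT16. The 2 higher calls were both of Lyve1, at ZT8 and ZT12, times at which 15.9% and 15.2% of all genes were higher. All 4 DRF libraries lay below all 4 NRF libraries for 2 markers at ZT4, 3 at ZT12, 3 at ZT16, 3 at ZT20 and 1 at ZT24, against 17.4%, 14.4%, 13.7%, 15.5% and 11.0% of all genes.

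The values behind these calls show how far the groups separated. Timd4 at ZT4 measured 8.74, 13.1, 10.4 and 12.9 CPM in the NRF mice and 6.17, 5.94, 5.51 and 8.93 CPM in the DRF mice, a log2 difference of -0.69 ± 0.23 (adjusted p 0.0159). The highest DRF mouse lay just above the lowest NRF mouse, so the groups overlapped narrowly. Adgre1 at ZT4 measured 33.1, 46.0, 49.6 and 57.9 CPM under NRF against 29.7, 33.2, 29.3 and 35.0 CPM under DRF (-0.52 ± 0.18, adjusted p 0.0199). There the DRF mice were tightly grouped and the lowest NRF mouse lay among them. Mesothelial transcripts did not overlap between the regimens at this time, with summed levels of 355 to 546 CPM in the NRF mice and 219 to 338 CPM in the DRF mice, and NRF ZT4 replicates 2 and 3 (546 and 528 CPM) held the 2 highest sums of the 56 libraries, whose median was 339 CPM. Over deviations from the group means, mesothelial genes went with Adgre1 (r = 0.61) and Timd4 (0.56). Red cell and adipocyte genes had higher median sums under DRF at ZT4, with overlapping ranges. Red cell sums ran from 149 to 412 CPM under NRF and from 392 to 742 CPM under DRF, and adipocyte sums from 16315 to 23814 CPM under NRF and from 22973 to 26808 CPM under DRF. Genes of large peritoneal cavity macrophages went with Timd4 over deviations from the group means (r = 0.68). At ZT4 they summed to 91.2 to 176 CPM under NRF and 146 to 213 CPM under DRF. Gata6 of this list had a median of 46.4 CPM over all NRF libraries, where the sum had 107 CPM. It was rhythmic under both regimens, with fitted peaks at 20.9 h under NRF and 7.9 h under DRF. Sums of lipid-associated macrophage genes separated upward, with 299 to 651 CPM under NRF and 833 to 1253 CPM under DRF. Over all times Fabp5, which adipocytes and endothelium also make, had medians of 376 CPM under NRF and 700 CPM under DRF. The sums of this list had medians of 557 and 874 CPM. Monocyte sums separated downward, with 50.6 to 73.1 CPM under NRF and 34.7 to 46.6 CPM under DRF. So did resident macrophage sums, with 1136 to 1923 CPM under NRF and 874 to 933 CPM under DRF. Over all times Gas6 of this list, also used by other cells of the tissue, had medians of 392 and 254 CPM. The resident macrophage sums had medians of 1163 CPM under NRF and 953 CPM under DRF. The part of the listed cell types in the ZT4 differences was not tested.

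Clec10a at ZT4 separated fully, with 50.1, 63.1, 63.4 and 67.9 CPM under NRF and 46.2, 45.0, 42.4 and 43.4 CPM under DRF (log2 difference -0.45 ± 0.16, adjusted p 0.0288). Cd163 was the other marker fully separated at ZT4, though its difference of -0.36 ± 0.20 did not pass (adjusted p 0.149). At ZT8 Clec10a gave its largest difference, -0.73 ± 0.16 (adjusted p 7.09e-04), with 60.1, 78.7, 67.9 and 63.8 CPM under NRF and 22.5, 63.4, 41.8 and 43.6 CPM under DRF. The lowest of these is DRF ZT8 replicate 1, and without that library and DRF ZT0 replicate 4 the difference was -0.46 (adjusted p 0.00631). The largest Clec10a difference was then that at ZT12, -0.53 (adjusted p 7.51e-04, and 0.0127 with all libraries, in limma).

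Mrc1 differed most in the late dark phase. At ZT20 it measured 140, 148, 161 and 175 CPM under NRF and 97.2, 100, 92.9 and 120 CPM under DRF, a log2 difference of -0.60 ± 0.16 (adjusted p 0.00351). At ZT24 it measured 168, 170, 155 and 138 CPM under NRF and 101, 98.6, 109 and 97.8 CPM under DRF (-0.62 ± 0.16, adjusted p 0.00328). The groups did not overlap at either time. At ZT0, the same clock time as ZT24, Mrc1 measured 101, 132, 155 and 127 CPM under NRF and 98.5, 106, 98.6 and 79.9 CPM under DRF. There the groups overlapped and the difference of -0.42 ± 0.16 did not pass (adjusted p 0.0531). At ZT12, by contrast, its DRF mean was 124 ± 14 CPM and its NRF mean 120 ± 9 CPM.

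Csf1r passed the threshold at ZT4, ZT8 and ZT12. At ZT12 it measured 142, 152, 128 and 154 CPM under NRF and 103, 126, 106 and 94.0 CPM under DRF, with no overlap and a log2 difference of -0.43 ± 0.15 (adjusted p 0.0349). Its ZT8 difference of -0.48 missed the threshold without the pair of libraries set apart (-0.29, adjusted p 0.124). Cd163 passed at ZT12 with -0.62 ± 0.20 (adjusted p 0.0154). Without that pair 20 of the 70 comparisons passed, against 29.3% of those over all genes. They were 14 of the 15 above and 6 more, all lower under DRF and at times to which neither library belongs, so that their estimates were as before. The 6 were Clec10a at ZT16 (-0.37, adjusted p 0.0198), ZT20 (-0.36, adjusted p 0.0213) and ZT24 (-0.43, adjusted p 0.00695), Mrc1 at ZT16 (-0.37, adjusted p 0.0359), Cd68 at ZT16 (-0.47, adjusted p 0.0467) and Itgax at ZT20 (-0.54, adjusted p 0.0377). With all libraries their adjusted p lay between 0.0535 and 0.106.

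Lyve1 was the marker that moved the other way. At ZT8 it measured 34.8, 51.4, 31.5 and 42.4 CPM under NRF and 52.3, 71.5, 89.2 and 56.7 CPM under DRF, so that every DRF mouse was above every NRF mouse (log2 difference 0.73 ± 0.21, adjusted p 0.00750). Such separation upward at ZT8 was found for 8.83% of all genes tested. At ZT12 the values were 43.2, 43.3, 77.1 and 51.8 CPM under NRF and 63.0, 110, 66.5 and 95.8 CPM under DRF (0.63 ± 0.21, adjusted p 0.0212). Both Lyve1 calls were lost when mice of 1 number were left out, with 0.48 at ZT8 (adjusted p 0.118) without those numbered 3, and 0.40 at ZT12 (adjusted p 0.270) without those numbered 2 and 0.55 (adjusted p 0.121) without those numbered 4. At ZT4 the order was reversed, with means of 68.1 CPM under NRF and 46.6 CPM under DRF, but that difference did not pass. With 3 mice per group, leaving out the mice of 1 number at a time, 7 to 14 of the 70 comparisons passed, and of the 15 calls 2 passed in every alternative, Mrc1 at ZT24 and Clec10a at ZT8.

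The markers varied together to different degrees. Over the 56 libraries, which share their scaling and differ in depth, Pearson's r on log2(CPM + 1) was highest between Csf1r and Clec10a (0.84), Csf1r and Mrc1 (0.73) and Adgre1 and Lyz2 (0.72). Each library was also expressed as its deviation from its group mean, which removes regimen and time. On that scale 15 of the 45 pairs exceeded 0.5, a share that was not computed for pairs of other genes. Csf1r then went with Mrc1 (0.81), Cd163 (0.79) and Clec10a (0.78), while Lyz2 went with Adgre1 (0.83) and Timd4 (0.78). Itgax stood outside both sets, with r from -0.35 to 0.07 against the other 9. Part of this rested on DRF ZT8 replicate 1 and DRF ZT0 replicate 4. Over the other 54 libraries Csf1r went with Mrc1 at 0.74 and with Cd163 and Clec10a at 0.71 each, while Mrc1 with Clec10a was 0.57, Mrc1 with Cd163 0.51 and Cd163 with Clec10a 0.47. Itgax against Mrc1 was then 0.30 and against Cd163 -0.02.

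**Figure D4:**
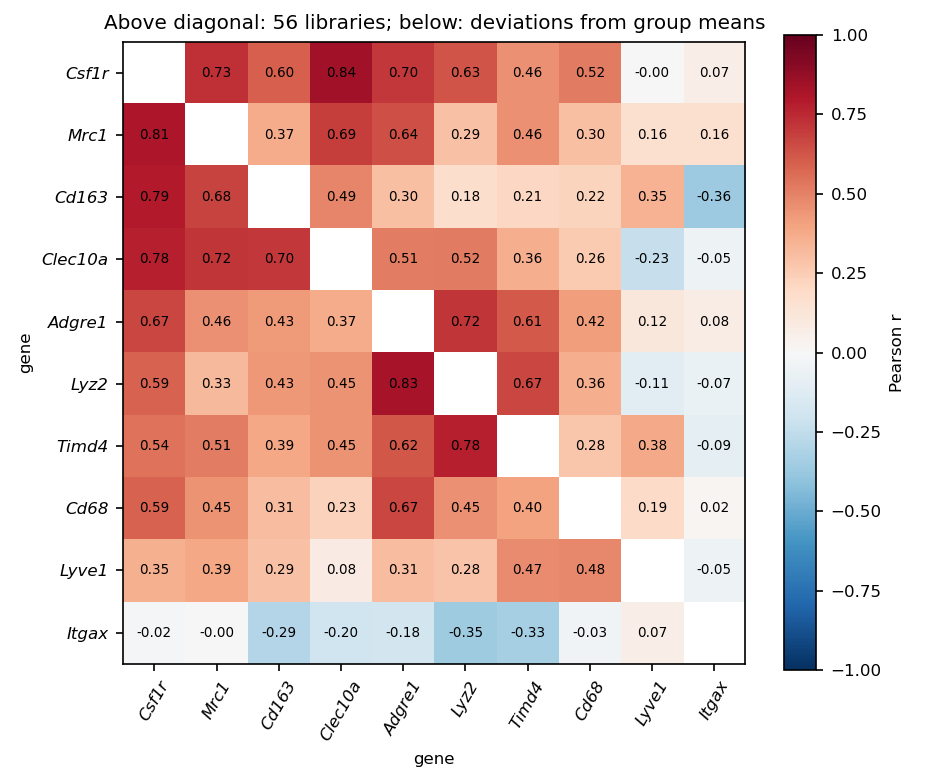
Pearson's r between the 10 markers on log2(CPM + 1), over the 56 libraries above the diagonal and over deviations from the 14 group means below it. Below the diagonal Csf1r, Mrc1, Cd163 and Clec10a range from 0.68 to 0.81 among themselves (0.47 to 0.74 without DRF ZT8 replicate 1 and DRF ZT0 replicate 4), Lyz2 reaches 0.83 with Adgre1, and the Itgax row stays at or below 0.07.

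Beyond the 10 markers, the genes most like each one over the 56 libraries were as follows. Those of Csf1r were Folr2 (r = 0.85), a folate receptor of resident macrophages, Clec4a3 (0.85) and Pld4 (0.85). Mrc1 was followed most closely by Dab2 (0.85), an endocytic adaptor, Fcrls (0.79) and Gfra2 (0.78), and Adgre1 by Fcrls (0.80), Clec4a3 (0.79) and Hacd4 (0.78). For Lyz2 they were Tyrobp (0.87), a signalling adaptor of myeloid cells, Cd53 (0.83) and Cybb (0.83), the catalytic subunit of the phagocyte oxidase. Cd68 went with Hpse (0.74), which encodes heparanase, Smpdl3b (0.71) and Grn (0.71), the lysosomal progranulin. Timd4 went with Ildr2 (0.74), Arhgdib (0.73) and 1500015O10Rik (0.71), Itgax with Psd4 (0.71), Runx2 (0.65) and Itgal (0.65), and Lyve1 with Alox5 (0.72), Ms4a6d (0.71) and Gpr165 (0.70). Cd163 was followed by Scara5 (0.87), a ferritin receptor, Serinc3 (0.86) and Dpep1 (0.83), a dipeptidase, each with a 24-h rhythm under both regimens. Clec10a was followed by Clec3b (0.84), which encodes tetranectin, C1ra (0.80), a complement protease, and Pros1 (0.79), an anticoagulant ligand.

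Other macrophage genes gave the background to the mean level. Of 15 general macrophage genes 10 were lower under DRF and 0 higher, against 17.4% lower and 18.7% higher among all genes tested, with a median log2 difference of -0.17 (0.00 for all genes). Cd14, the co-receptor for endotoxin (-0.39 ± 0.10, adjusted p 0.00161), Aif1, an actin-binding protein (-0.27 ± 0.08, adjusted p 0.00747), and Fcgr1, the high-affinity IgG receptor (-0.25 ± 0.07, adjusted p 0.00782), had the largest differences among them. Of 13 resident and perivascular macrophage genes 6 were lower and 1 higher, with a median of -0.17. Gas6, a bridging ligand for dying cells (-0.55 ± 0.11, adjusted p 8.25e-05), and Maf, a transcription factor (-0.40 ± 0.05, adjusted p 5.84e-09), were lower, and Cbr2, a carbonyl reductase, was higher (0.38 ± 0.10, adjusted p 0.00188). Gas6 and Maf are also used by other cells of the tissue.

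In the growth factor axis 3 of 6 genes tested were lower and 0 higher, where 17.4% of all genes were lower and 18.7% higher. Csf1, the main ligand of the Csf1r receptor, was lower by a log2 difference of -0.16 ± 0.07 (adjusted p 0.0465), with medians of 64.4 CPM under NRF and 55.6 CPM under DRF. Csf2rb, the shared receptor chain for GM-CSF, IL-3 and IL-5, had -0.42 ± 0.06 (adjusted p 9.63e-07) and Spi1 had -0.19 ± 0.06 (adjusted p 0.0122). The second ligand of the receptor, Il34, had -0.18 ± 0.08 and missed the threshold (adjusted p 0.0726).

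Lists for other myeloid cells were mixed, and their small counts stand against 17.4% of all genes lower and 18.7% higher. Of 5 monocyte genes 2 were lower, Ccr2, the receptor that brings monocytes into tissue (-0.41 ± 0.07, adjusted p 9.15e-06), and Ly6c2 (-0.25 ± 0.08, adjusted p 0.0106), while Chil3 was higher (0.28 ± 0.07, adjusted p 0.00244). Of 9 dendritic cell genes 3 were lower and 1 higher, with Siglech, a marker of plasmacytoid cells, at -0.58 ± 0.09, Itgae at 0.43 ± 0.08 and Cd209a at -0.37 ± 0.06 (adjusted p 2.57e-06, 5.81e-05 and 2.08e-06). Of 6 lipid-associated macrophage genes Fabp5 was higher (1.04 ± 0.16, adjusted p 8.74e-07) and Gpnmb lower (-0.82 ± 0.13, adjusted p 4.10e-06). Fabp5 is a fatty acid carrier that adipocytes and endothelium also make. Of 5 large peritoneal cavity macrophage genes 1 passed, Icam2 (0.15 ± 0.05, adjusted p 0.0102), which endothelium also expresses, a share near that of all genes.

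**Figure D5:**
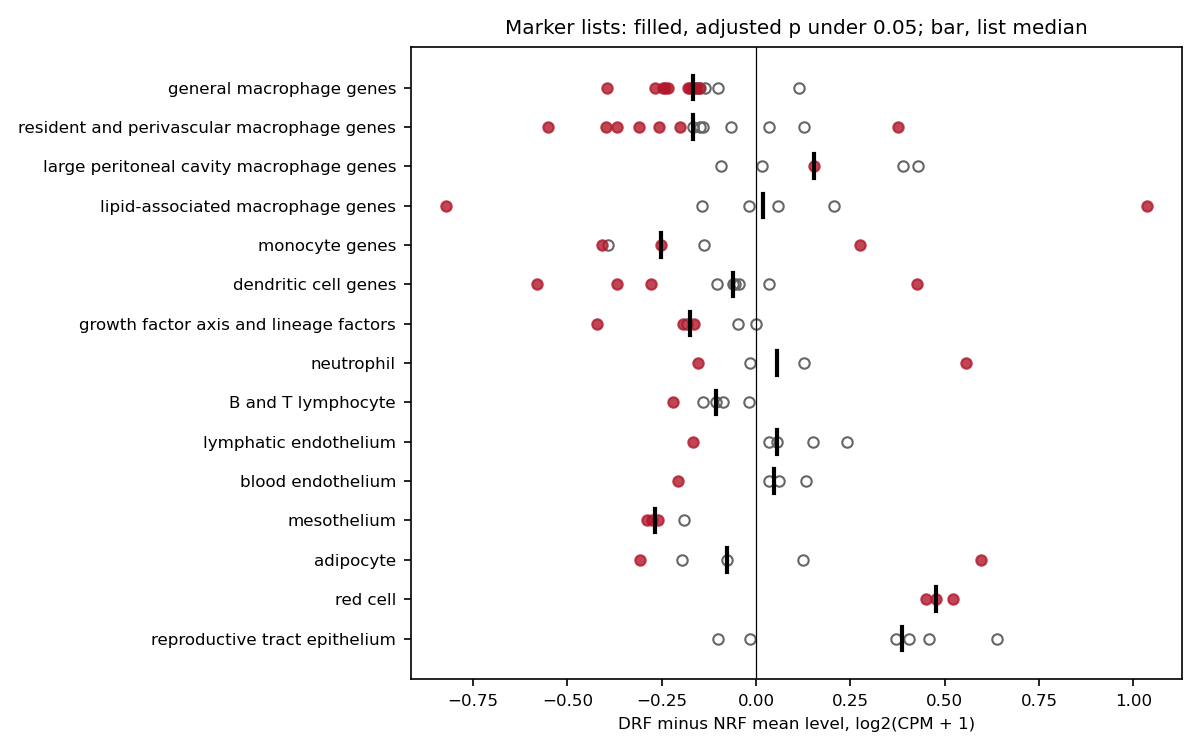
DRF minus NRF difference in mean level, in log2(CPM + 1), for each gene tested of the other marker lists (rows); filled points passed an adjusted p of 0.05 and the bar is the list median. General and resident macrophage genes both have a median of -0.17, mesothelial genes of -0.27 and red cell genes of 0.48.

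Markers of other cells moved with the regimen as well. Of 4 mesothelial genes 3 were lower under DRF (17.4% of all genes were), Lrrn4 (-0.29 ± 0.09), Upk3b (-0.27 ± 0.10) and Wt1 (-0.26 ± 0.08; adjusted p 0.00973, 0.0269 and 0.00994). The summed mesothelial level ran from 195 to 546 CPM under NRF (median 380) and from 172 to 496 CPM under DRF (median 297). Over deviations from the group means, mesothelial genes went with Lyz2 (r = 0.70), Adgre1 (0.61) and Timd4 (0.56), and little with Mrc1 (0.11) or Clec10a (0.17). Genes of B and T lymphocytes went with Lyz2 (0.77) and Timd4 (0.61), and those of large peritoneal cavity macrophages with Lyz2 (0.73) and Timd4 (0.68). These r values include NRF ZT8 replicate 2, which was highest of all libraries in Lyz2 (1270 CPM) and Timd4 (14.5 CPM). It also held the highest lymphocyte sum (27.5 CPM, median 8.80) and the highest peritoneal macrophage sum (229 CPM, median 111). Adipocyte genes went with Clec10a (0.59) and Cd163 (0.58), but over the 54 libraries without DRF ZT8 replicate 1 and DRF ZT0 replicate 4 these were 0.08 and 0.14. All 3 red cell genes were higher under DRF (median 0.48), as were 18.7% of all genes, with Hba-a1 at 0.52 ± 0.13 (adjusted p 0.00113), Hbb-bs at 0.48 ± 0.13 (adjusted p 0.00373) and Alas2 at 0.45 ± 0.12 (adjusted p 0.00285), and their sum had a median of 240 CPM under NRF and 394 CPM under DRF. Of 5 adipocyte genes Adipoq was lower (-0.31 ± 0.08, adjusted p 0.00132) and Lep higher (0.60 ± 0.16, adjusted p 0.00299). The part of these cells in the differences of the macrophage markers was not tested.

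The remaining cell type lists had 0 to 2 members called each, where 17.4% of all genes were lower and 18.7% higher. S100a8, a neutrophil alarmin, was higher (0.56 ± 0.07, adjusted p 1.64e-08) and Csf3r, the receptor for G-CSF, lower (-0.15 ± 0.06, adjusted p 0.0389) among 4 neutrophil genes tested. Cd4 was lower among 5 lymphocyte genes tested (-0.22 ± 0.06, adjusted p 0.00318), and Cd3e, Cd3d and Cd8a did not reach the level for testing. Emcn was lower among 4 blood endothelial genes (-0.21 ± 0.06, adjusted p 0.00366). Lymphatic endothelium, which also expresses Lyve1, had 1 of 5 genes tested lower, Pdpn (-0.17 ± 0.06, adjusted p 0.0361), and 0 higher. Its defining factor Prox1 lay at medians of 0.546 CPM under NRF and 0.709 CPM under DRF and differed by 0.06 ± 0.13 (adjusted p 0.767). Over deviations from the group means Lyve1 had r = -0.28 with the lymphatic genes and r = 0.56 with the resident macrophage genes. Over the 56 libraries the values were 0.11 and 0.29. Under DRF the median lymphatic sum was lowest at ZT0 (34.0 CPM) and highest at ZT16 (50.4 CPM). The DRF mean of Lyve1 was lowest and highest at the same times. Over all DRF libraries Pdpn had a median of 18.8 CPM, where the lymphatic sum had 43.9 CPM. The part of lymphatic endothelium in the Lyve1 values was not tested.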

How the data were processed

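The authors aligned reads with HISAT2 2.0.5 to mm10 and counted them with featureCounts 1.5.0-p3, per the labels. The deposited values, named TPM by the authors, are treated as a score: multiplied by exon length (GENCODE M21), they follow log2(CPM + 1) with a scale per library. Inverting this gave read numbers, whole to within 0.02 for 99.98% of the 1261944 values not above 10000 reads (4% would be by chance). Exon length was taken from the values for 894 genes, Csf1r among them. The tests kept the logarithmic scale of the deposited scores, and count models were not used on the recovered reads. Recovered reads ran from 31016312 to 41046860 per library, and counting error is largest for Itgax (49 to 348 reads).

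Genes with a mean CPM of at least 0.5 (15731) were tested on log2(CPM + 1), a scale that understates changes of low genes. Mean level, rhythm difference and single time points were tested with limma 3.58.1 (R 4.3.3, trend, all 56 libraries; a 24-h cosine and sine per regimen, or 14 group means). Rhythms within a regimen used the 2 tests of MetaCycle, JTK_CYCLE with 6 lags and the Lomb-Scargle periodogram, with Fisher's combination of their p-values, in Python 3.11.15; amplitudes and phases come from a cosine fit, and a phase of a gene that is not rhythmic is not given. P-values were adjusted over all genes tested by the Benjamini-Hochberg method with a threshold of 0.05. The recovery of reads and the tests of mean level and rhythm were tried on simulated data. There the changes of the mean and the rhythm amplitudes were set larger than those of any marker, with the same dispersion for all genes. Recovery at the size of the marker effects was therefore not tested. The test of the mean level recovered 200 of 200 changed genes and called 11 others. The rhythm tests recovered 400 of 400 rhythmic genes under NRF and 200 of 200 under DRF. They also called 71 and 53 genes without a rhythm, more than the threshold of 0.05 allows.

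The members and lists were chosen with earlier results of these data known. Named genes are the 10 markers, the 3 genes with the highest r to each, and the up to 3 genes of each list with the largest called difference; Il34, Prox1, Lyz1 and Mgl2 were added after their values were seen. Alternatives covered the filter, scaling, pseudocount, deposited scores, replicate block, libraries and time points left out, and time points as a factor. Each library is 1 mouse, and replicate numbers name different mice. Other tissues were not analysed here.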

Additional observations from a re-analysis of the deposited data

Results flagged for a closer look

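In 7 of the 140 groups of 4 libraries (10 markers in 14 groups) 1 library lay far from the other 3, and chance gives about 7. Cd68 was 34.1 CPM in DRF ZT12 replicate 2 against 22.7 to 23.1 CPM in the other 3. Mrc1 was 121 CPM in NRF ZT8 replicate 1 against 138 to 140 CPM. Itgax was 1.85 CPM in NRF ZT12 replicate 1 against 2.49 to 2.63 CPM, and 3.44 CPM in NRF ZT16 replicate 1 against 1.59 to 1.67 CPM. Lyz2 was 363 CPM in NRF ZT12 replicate 3 against 500 to 521 CPM. Clec10a was 37.3 CPM in DRF ZT0 replicate 4, which is 1 of the libraries with reproductive tract epithelium transcripts, against 55.6 to 57.3 CPM. Timd4 was 14.5 CPM in NRF ZT8 replicate 2, the library with the highest summed marker level, against 6.60 to 7.05 CPM.

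The 24-h rhythm differed between the regimens for Lyve1 (adjusted p 0.0102 in limma), Mrc1 (0.0136), Cd163 (0.0159) and Timd4 (0.0433), by the test of the difference itself.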

How the results depend on the processing

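The count of 5 markers lower under DRF stayed between 4 and 6 in 16 alternatives, and the log2 differences of Clec10a, Mrc1, Csf1r and Cd163 passed in each. Without NRF ZT8 replicate 2, or without the ZT4 libraries (both added after seeing the data), 5 and 6 passed. The Itgax difference turned positive without the ZT4 libraries (0.050), and without 1 mouse number at a time it ranged from -0.11 to 0.025; that of Timd4 ranged from -0.18 to 0.017. The cause was not tested. CPM from recovered reads moved the median of all genes to -0.04 and the share of lower genes among all calls from 48.2% to 62.8%.

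Under NRF 1 marker was rhythmic without the ZT24 libraries, against 2. Under DRF 4 were rhythmic by the limma cosine test with the replicate block, against 2. The count of 4 rhythm differences was 2 on deposited scores, 2 without the ZT24 libraries, and 1 to 4 without 1 mouse number at a time. The 15 single time-point calls became 8 on deposited scores, 21 with CPM from recovered reads and 7 to 14 without 1 mouse number. Without DRF ZT8 replicate 1 and DRF ZT0 replicate 4 they became 20. Under NRF, 2 markers differed between the 7 time points, and 1 to 3 without 1 mouse number. Fewer mice are part of these last changes by construction.

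Replicate numbers did not pair the mice: deviations of same-numbered libraries had a median r of 0.02 (8 of 28 pairs over 0.1), against -0.02 for other pairs. The replicate block gave 6 markers for the mean level, 4 for the rhythm difference and 19 of 70 time-point calls. Of 694 refits of single-marker results, 626 kept direction and side of the threshold, 54 lost it, 11 gained it and 3 reversed. Depth limits Itgax most, with 49 to 348 reads per library.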
